A study of Mus musculus with 1457 samples.

Results

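Haemogenic endothelium (HE) is the endothelium of the embryonic dorsal aorta from which blood stem and progenitor cells arise, and the comparison described here is within one sort of these cells: cells in which the transcription factor gene Runx1 was read against cells in which it was not. The sort came from E10.5 ICR mouse embryos of the genotype Gfi1:Tomato/WT Gfi1b:GFP/WT, in which one allele of each gene carries a fluorescent reporter, and was gated as positive for CDH5 and GFI1 and negative for TER119, CD41, CD45, KIT and GFI1b. Of its 95 cells, 79 had at least 100000 reads and under 1% of reads from 7 globin genes. In 44 of them Runx1 had at least 5 reads (called Runx1-read), in 35 it had 0 (called Runx1-unread), and in 0 it had 1 to 4, out of 1457 cells in the whole series. A further 43 cells of this gate and genotype carry the stage field E10.5 but a title of E11.5, and they were left out of the 79 and treated as a sort of their own. All cells of this sort carry both reporter alleles, so every cell compared here has a single intact copy of Gfi1 and of Gfi1b.

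The study sorted single cells along the path from endothelium to blood and read them with Smart-seq2, in which each cell is its own full-length library. Endothelium (Endo) was gated as HE but without GFI1, cells of the endothelial-to-haematopoietic transition (EHT) as HE but positive for CD41 and KIT, and cells of the intra-aortic haematopoietic clusters (IAHC) were in addition GFI1b+, all from the same genotype at E10.5. Further HE sorts were GFI1 HE of the same genotype at E11.5, GFI1 HE whose title says E11.5 and whose stage field says E10.5, GFI1 HE that is also ACE+ from E10.5 Gfi1:Tomato/WT embryos (ACE sort), CDH5+RUNX1b+ cells of E10.5 Runx1b:RFP/WT embryos (RUNX1b sort), and E10.5 HE of Gfi1:Tomato/Tomato Gfi1b:GFP/GFP embryos, which have no intact copy of either gene (KO sort). The labels name no embryo, so each sort counts as 1 sample, and the E10.5 comparison carries no p-value.

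RUNX1 is required for endothelium to give rise to blood. It acts early in the transition, and GFI1 and GFI1B, which are repressors induced downstream of it, help to shut down endothelial genes. SPI1 (PU.1) is a myeloid and stem cell transcription factor whose gene is a described RUNX1 target. KIT is the receptor of stem cell factor, and CDH5 is the adhesion molecule of endothelial junctions.

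The 79 cells were chosen by a measured value, their Runx1 reads, and Runx1 itself is no result here. These reads in the 44 Runx1-read cells were 6 at the lowest, 73 at the median and 315 at the highest, which is 6.35 CPM (reads scaled to a total of 1000000) at the lowest and 104.01 CPM at the median. By counting error alone, a count of 0 in a Runx1-unread cell allows up to 3 reads. That is 4.73 CPM at the median depth and 7.62 CPM in the shallowest such cell. This limit does not cover transcripts missed before sequencing. The Runx1-unread cells are thus cells without a Runx1 read and not cells shown to lack the transcript. The highest globin share inside the limit was 0.211% and the lowest outside it 46.3%, and the shallowest cell had 217358 reads. Runx1-read cells held 28608715 reads in all and Runx1-unread cells 23152273. The median depth was 626261 and 634177 reads, the median mitochondrial share 2.86% and 2.59%, and the median number of genes with a read, after each cell was thinned to 100000 reads, 5793.5 and 5511. All 44 Runx1-read cells kept a Runx1 read in their thinned reads.

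The cells fall into runs of consecutive cell numbers in their titles, which the labels do not describe. The first run, of 42 cells, held 29 Runx1-read and 13 Runx1-unread cells, and the 3 later runs 15 and 22, so Runx1 reads and cell numbers are linked. Within the Runx1-unread cells alone, 746 genes were at least 2-fold higher and 1156 at least 2-fold lower in the first run than in the later runs, of 8090 compared by the rule given next, and within the Runx1-read cells 665 and 864 of 8129. Values within the first run and within the later runs are therefore given beside part of the results. Where they are not given, a difference is not separated from the cell numbers. Cells with Xist reads made up 24 of the Runx1-read and 17 of the Runx1-unread cells, cells with reads of Y-linked genes 18 and 15, and no cell had over 10 reads of both.

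Between the 2 kinds of cell, 8077 genes reached 20 CPM in the summed reads and had a read in 25% of the cells on the same side, and 695 of them (8.6%) differed at least 2-fold both in the summed reads and in the mean of the cells' CPM. Of these, 314 (3.89%) were higher in Runx1-read cells and 381 (4.72%) lower. Log2 ratios were taken with 1 CPM added to both sides. Transcription factor and signalling genes of blood cells stood among the genes that were higher, and arterial, venous and matrix genes among those that were lower. Within both sets of cell numbers, 41.1% of the 314 were again at least 2-fold higher (all genes compared: 1.87%) and 31.8% of the 381 at least 2-fold lower (all genes: 1.68%). With the cells of conflicting stage labels added (54 Runx1-read and 64 Runx1-unread cells), 52.2% of the 314 and 53.3% of the 381 were again past the 2-fold rule. These shares are not independent of the choice, since the same cells chose the genes.

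**Figure D1:**
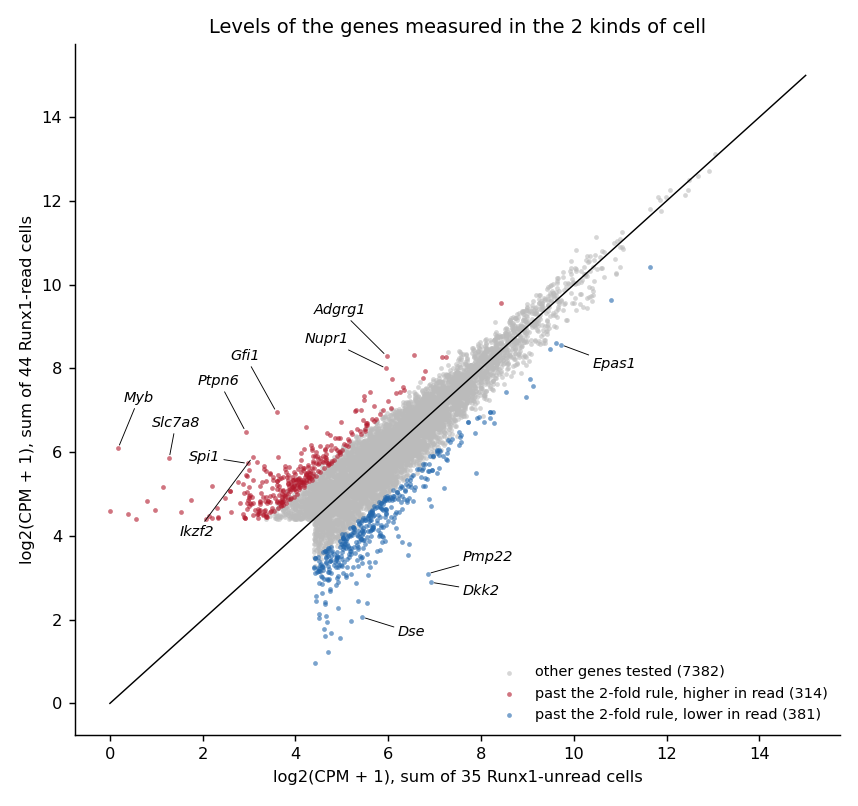
Summed level of each of the 8077 genes in the 35 Runx1-unread cells (horizontal) and the 44 Runx1-read cells (vertical), both as log2 of CPM with 1 added. Each point is a gene. The 314 genes past the 2-fold rule that were higher in Runx1-read cells lie above the diagonal, Myb and Gfi1 among them, and the 381 that were lower lie below it, Dkk2 and Pmp22 among them.

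Gfi1, the gene behind the reporter of the gate, was read in 34 of 44 Runx1-read cells (77.3%, exact 95% interval 62.2 to 88.5%) and in 4 of 35 Runx1-unread cells (11.4%, 3.2 to 26.7%). These intervals, like all others given here, cover counting error only. Its level was 0, 74.2 and 399 CPM at the lowest, median and highest Runx1-read cell and 0, 0 and 172.3 CPM in the Runx1-unread cells. The kinds overlapped, but 14 Runx1-read cells lay above the highest Runx1-unread cell. In summed reads Gfi1 stood at 122.9 CPM (118.9 to 127.03) against 11.1 CPM (9.74 to 12.5), an 11.1-fold difference, with log2 ratios of 2.39 in the first run and 5.11 in the later runs. Gfi1 lies on chromosome 5 at 107716657 to 107726036 (GRCm38, minus strand). Both kinds passed a gate on the GFI1 reporter, and the Tomato transcript itself was not analysed here.

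Spi1, on chromosome 2 at 91082390 to 91115756 (plus strand), was read in 17 of 44 Runx1-read cells (38.6%, 24.4 to 54.5%) and 4 of 35 Runx1-unread cells. Its summed level was 52.1 CPM (49.5 to 54.8) against 6.87 CPM (5.84 to 8.02). The median cell was at 0 on both sides, and the highest at 418 and 86.4 CPM. In most cells of either kind Spi1 was therefore not read. The log2 ratio was 2.75 over all cells, 2.08 in the first run and 3.63 in the later runs.

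Myb, the transcription factor of definitive blood progenitors (chromosome 10, 21124935 to 21160984, minus strand), had the highest ratio of all genes named by the rule. It was read in 19 of 44 Runx1-read cells and 1 of 35 Runx1-unread cells, at 67.2 CPM (64.2 to 70.3) against 0.13 CPM (0.027 to 0.379). The highest cells stood at 545 and 4.02 CPM. The log2 ratio was 5.92 over all cells, 6.18 in the first run and 4.27 in the later runs.

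Cells with reads of 2 of these genes were counted as well. Gfi1 and Spi1 were both read in 15 of 44 Runx1-read cells, and 2 more had Spi1 without Gfi1. In the Runx1-unread cells the 4 cells with Gfi1 and the 4 with Spi1 were different cells, so 0 of 35 had both, which allows a share of up to 8.57%. Gfi1 and Myb were both read in 15 Runx1-read cells and in 1 Runx1-unread cell, and Spi1 and Myb in 12 and 0. Such counts depend on how many cells had each gene. A link between the genes within a kind of cell was not tested.

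**Figure D2:**
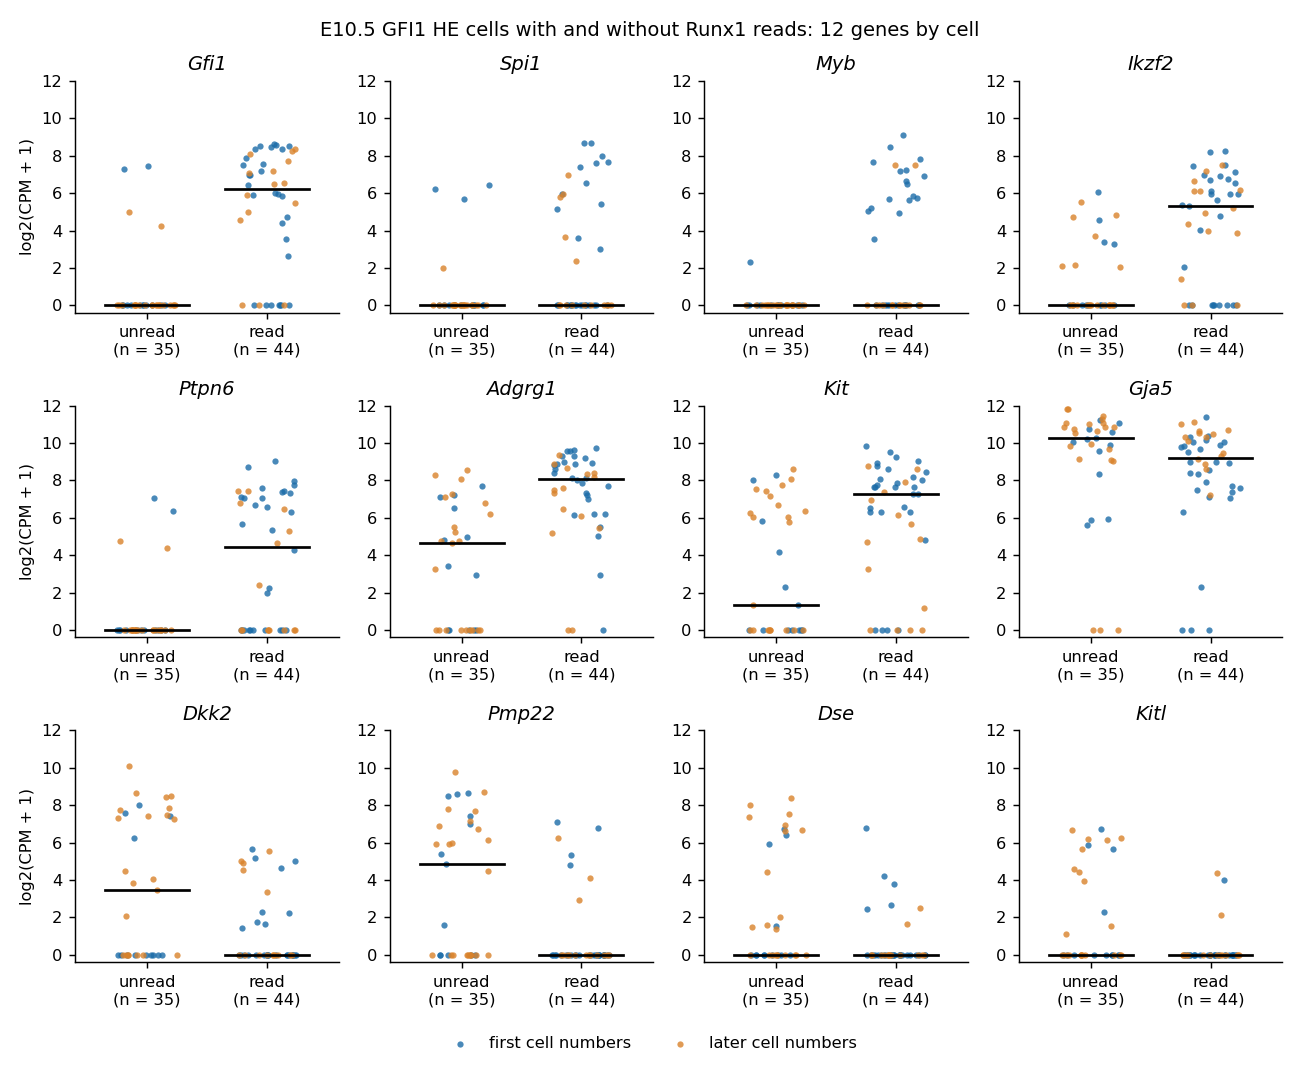
CPM of 12 genes in each of the 35 Runx1-unread and 44 Runx1-read cells, as log2 with 1 CPM added; each point is a cell, coloured by the set of cell numbers, and the bar is the median cell. Gfi1, Ikzf2, Ptpn6, Adgrg1 and Kit have a higher median cell among the Runx1-read cells, Dkk2, Pmp22 and Gja5 a lower one, and Spi1, Myb, Dse and Kitl have a median cell at 0 on both sides.

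Of the 24 transcription factors of blood and blood stem cells listed for this comparison, 21 reached 5 CPM on either side. Of these, 20 had the higher level in Runx1-read cells, at a median log2 ratio of 0.67. Of all 11087 genes at that level, 5663 were higher and 5424 lower, at a median of 0.016. The counts of every list below stand beside these, and beside the 3.89% higher and 4.72% lower by the 2-fold rule. Of the 19 compared by the 2-fold rule, 8 were past it, all of them higher. Beside Gfi1, Spi1 and Myb these were Ikzf2 (57.9 against 7.43 CPM), a zinc finger factor of lymphoid and stem cells, Hlf (31.7 against 6.39 CPM), a factor of haematopoietic stem cells, Nfe2 (41.3 against 12.3 CPM), a factor of megakaryocytes and erythroid cells, and the repressor Etv6 (109.3 against 52.5 CPM) and the GATA cofactor Zfpm1 (43.9 against 17.7 CPM). Gata2, Mecom, Erg and Lyl1, which endothelium also expresses, differed little: Gata2 stood at 159.01 against 152.4 CPM, Mecom at 400 against 374, Erg at 38.6 against 38.3 and Lyl1 at 255.87 against 221.6. Lmo2, at 227.5 against 290 CPM, was the only measured member with the lower level in Runx1-read cells. The median of the list was 1.05 in the first run and 0.62 in the later runs.

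The list can also be counted cell by cell. After thinning to 100000 reads, a Runx1-read cell had a read of 14 of the 24 genes at the median (9 to 20) and a Runx1-unread cell of 11 (4 to 15). Endo cells had 8 (2 to 13), EHT cells 19 (12 to 21) and IAHC cells 19 (14 to 22). Without thinning the medians were 15, 11, 8, 19 and 20. Runx1 is not on the list. Both kinds of HE cell thus lay between Endo and EHT at the median, with ranges that overlap their neighbours.

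**Figure D3:**
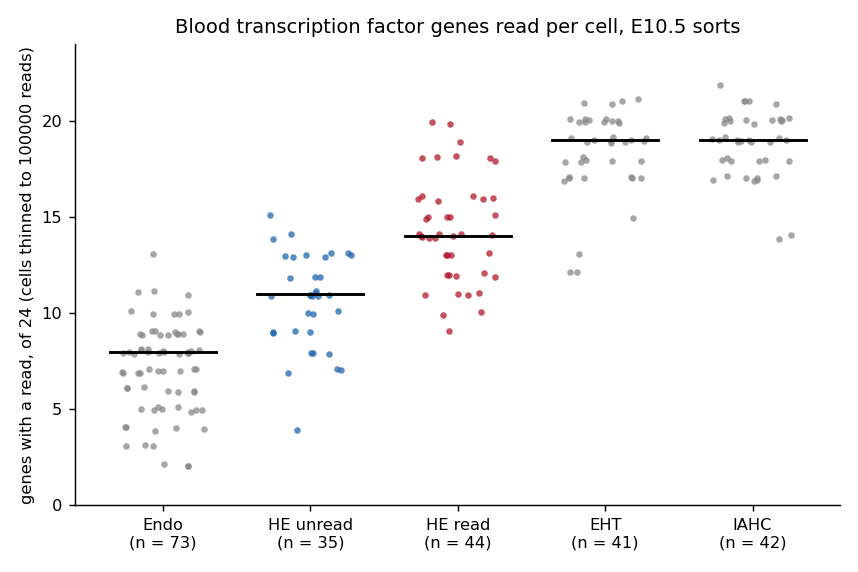
Number of the 24 blood transcription factor genes with a read in each cell, after thinning to 100000 reads, for 73 Endo, 35 Runx1-unread HE, 44 Runx1-read HE, 41 EHT and 42 IAHC cells of E10.5; each point is a cell and the bar the median. The medians are 8, 11, 14, 19 and 19.

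Genes of leukocyte signalling were also among those that were higher. Of 14 of the 20 listed genes that reached 5 CPM, 10 had the higher level in Runx1-read cells (median log2 ratio 0.60), and 4 of the 9 compared were past the 2-fold rule. Ptpn6, the phosphatase SHP-1, was read in 26 of 44 against 4 of 35 cells and stood at 88.6 against 6.61 CPM. Dock2, an activator of Rac in blood cells, was read in 15 against 1 and stood at 27.4 against 0.73 CPM. Cyth4 and the actin regulator Coro1a were the other two, with Coro1a reversed between the sets of cell numbers (log2 ratios of 2.20 and −0.58). Lcp1 (69.3 against 133.2 CPM), an actin bundler that is also read in Endo, had the lower level in Runx1-read cells.

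Among surface proteins, the genes of the gate behaved unlike each other. Kit was higher in Runx1-read cells (213.96 against 66.6 CPM, 36 of 44 against 19 of 35 cells), although the gate was KIT-. Its log2 ratio was 2.63 in the first run and 0.27 in the later runs. Itga2b, which encodes CD41, stood at 19.6 against 1.34 CPM (16 against 2 cells) and did not reach the level of the 2-fold rule. Gfi1b was read in 8 of 44 cells and in 0 of 35, at 16.4 CPM against 0. Its log2 ratio was 4.73 in the first run and 0.37 in the later runs, and it was −2.27 when the cells rich in globin reads were kept. Ptprc, which encodes CD45, was read in 1 Runx1-read cell and in no other. Itgb3, the integrin of platelets and early blood progenitors, was past the rule (125.9 against 37.8 CPM).

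Of 14 measured genes described as markers of HE, 12 had the higher level in Runx1-read cells. Their median log2 ratio was 0.85 over all cells, but 0.44 in the first run and 0.64 in the later runs. Of the 10 compared, 5 were past the rule, 4 of them higher. The adhesion receptor Adgrg1 (GPR56) stood at 313 CPM (307 to 320) against 61.5 (58.3 to 64.7), was read in 41 of 44 against 21 of 35 cells, and had a median cell of 269.01 against 24.5 CPM. Nupr1 stood at 255.1 against 61.2 CPM, the DNA methyltransferase Dnmt3b at 172.9 against 47.6 and the ubiquitin ligase Neurl3 at 170.6 against 71.1. Procr, Cd44 and Ifitm3 differed less than 2-fold, and the arterial repressor Hey2, which is on the same list, was the 1 that was lower (59 against 143.2 CPM).

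Others with a ratio among the highest were Pglyrp2, Slc7a8, the phospholipase Pla2g4a, Arhgap6, Cebpb, Tbc1d10c and Phtf2. Pglyrp2, a peptidoglycan amidase, was read in 12 cells and in 0 (23.1 against 0 CPM). The amino acid transporter Slc7a8 stood at 56.9 against 1.43 CPM and the C/EBP factor Cebpb at 23.5 against 0.95 (24 against 4 cells). Together with Gfi1, Myb, Ptpn6 and Dock2 these 11 genes kept their direction in both sets of cell numbers, with log2 ratios from 2.39 to 6.18 in the first run and from 1.67 to 6.04 in the later runs. With the cells of conflicting stage labels added, the log2 ratio of Arhgap6 went from 4.03 to 1.53, of Tbc1d10c from 3.10 to 1.007, of Phtf2 from 3.03 to 1.06, of Dock2 from 4.04 to 2.59, of Cebpb from 3.65 to 2.72 and of Gfi1 from 3.36 to 2.68.

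Genes of endothelium had lower levels in Runx1-read cells. All 20 pan-endothelial genes were measured and all 20 stood lower, at a median log2 ratio of −0.46, which was −0.45 in the first run and −0.25 in the later runs. Only Kdr, the VEGF receptor (353 against 719 CPM), and the guidance receptor Robo4 (44.3 against 132.2 CPM) were past the 2-fold rule. Cdh5 was read in 44 of 44 and 34 of 35 cells and stood at 748 CPM (738 to 758) against 1117 (1103 to 1131), with a lowest, median and highest cell of 144.4, 644 and 2430 CPM against 0, 1170 and 2687. Runx1-read cells thus had endothelial transcripts throughout: 15 to 20 of the 20 pan-endothelial genes were read in each. One Runx1-unread cell had only 3, and the others kept a median of 20. Without it, 339 genes were higher and 382 lower by the same rule. With the globin-rich cells kept (45 Runx1-read and 50 Runx1-unread cells), most medians of the endothelial and matrix lists changed sign. The median log2 ratio was then 0.21 for pan-endothelial, 0.24 for endothelial junction, 0.010 for arterial and 0.035 for matrix genes. For venous genes it was −0.17. The medians of blood transcription factors and leukocyte signalling rose in this setting as well, while that of the gate genes fell. CPM there counts the globin reads of the added cells, which were mostly Runx1-unread. A change of endothelial genes is therefore not separated from this scaling. The lists were not tested with globin reads left out of the total.

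Arterial genes showed the same direction. Of 22 measured, 21 had the lower level in Runx1-read cells (median log2 ratio −0.67, and −0.65 and −0.54 in the 2 sets of cell numbers), and 6 were past the rule: the hypoxia factor Epas1 (378 against 845 CPM), the NOTCH ligand Dll4 (122.5 against 291), Notch4 (122.97 against 290), Hey2, the growth factor binding protein Igfbp3 (104.2 against 268.8) and the latent TGF-beta binding protein Ltbp4 (123.95 against 304), whose log2 ratio was 0.25 in the first run. Gja5, the connexin of arteries, stood at 775 against 1338 CPM, and Sox17, which marks arterial and haemogenic endothelium, at 140 against 233.02. Hey1 (243.7 against 225.7 CPM) was the exception. Arterial genes in sum were at 5858 CPM in Runx1-read and 9307 CPM in Runx1-unread cells, against 3008 in Endo, 1421 in EHT and 267.6 in IAHC, so both kinds of HE cell were above Endo.

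Of 8 measured venous genes 7 were lower, Stab1 (213.8 against 528 CPM) and the endocytic adaptor Dab2 (40.4 against 110) past the rule. The venous median log2 ratio was −0.81 over all cells, −0.62 in the first run and −0.66 in the later runs. Of 18 matrix genes 16 were lower, at a median of −0.65 (−0.38 in the first run and −0.43 in the later runs). The basement membrane proteins Nid1 (387 against 790 CPM) and Nid2 were past the rule, while fibronectin, Fn1, stood at 3587 against 3192 CPM.

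The 12 genes with the lowest ratios were led by Dkk2, a secreted WNT inhibitor (6.43 CPM, 5.54 to 7.43, against 120, 115.5 to 124.5). It was read in 14 of 44 against 19 of 35 cells, and the highest cells stood at 48.8 and 1090 CPM. Pmp22, a tetraspan membrane protein, stood at 7.55 against 114.2 CPM (7 against 20 cells). Kitl, the ligand of KIT, was at 0.94 against 20.3 CPM (3 against 14 cells). Over all 79 cells receptor and ligand thus differed in opposite directions. However, the log2 ratio of Kit was only 0.27 in the later runs, and that of Kitl was 0.92 in the ACE sort. The others were Rgmb, a BMP co-receptor, the dermatan sulfate epimerase Dse (3.18 against 42.2 CPM), Ccdc125, the MAX dimerization protein Mxd3, Nkain3, Kdelr3, Poc5, the endothelin receptor Ednrb and the mismatch repair protein Mlh3. All 12 kept their direction in both sets of cell numbers, at −6.19 to −1.12 and −5.26 to −0.42. The log2 ratio of Ednrb was −2.90 over all cells, −1.66 without the cell that had most of it and −0.75 among cells with Xist reads. With the cells of conflicting stage labels added, Dkk2 went from −4.02 to −1.88, Poc5 from −2.90 to −1.83, Nkain3 from −3.08 to −2.29 and Ccdc125 from −3.23 to −2.34.

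**Figure D4:**
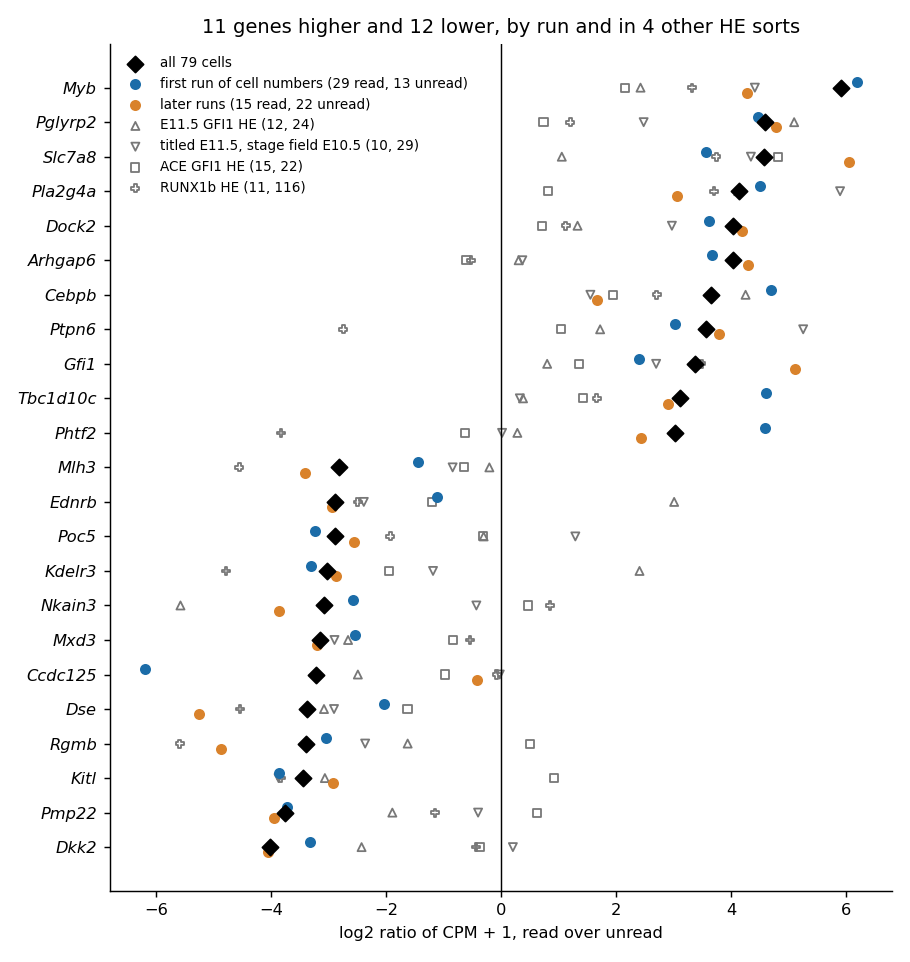
Log2 ratio of CPM with 1 added, Runx1-read over Runx1-unread cells, for 11 genes with the highest and 12 with the lowest ratio: over all 79 cells (diamonds), within the first run and the later runs of cell numbers (filled circles), and in 4 other HE sorts (open symbols; Runx1-read and Runx1-unread cells in brackets). The diamonds and circles stay on one side of 0 by gene, while the open symbols spread wider and lie on the other side of 0 in at least 1 sort for 11 of the 23 genes.

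The core of the sequence that RUNX proteins bind, TGTGGT or its complement ACCACA, was looked for in the 250 bases before the annotated starts (RefSeq, GRCm38.p6). It was found for 766 of the 6306 compared genes with an entry (12.1%), for 27 genes that were higher in Runx1-read cells (11% of those with an entry) and for 35 that were lower (12.2%). These shares are close to each other. Of the 12 genes with the highest ratio, 0 of 10 with an entry held it, Gfi1 and Myb among those 10, and of the 12 with the lowest ratio 3 of 11 did. The 3 are shown with the match in capitals, since they are the members of these 2 groups that held it; a match of 6 letters is a description and not a bound site. The stretches are on chromosome 15 at 79516187 to 79516252 (Kdelr3, plus strand), chromosome 10 at 34207435 to 34207485 (Dse, minus strand) and chromosome 11 at 63128769 to 63128834 (Pmp22, plus strand, at the first of 2 starts).
Kdelr3: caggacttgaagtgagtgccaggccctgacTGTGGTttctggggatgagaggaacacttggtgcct
Dse: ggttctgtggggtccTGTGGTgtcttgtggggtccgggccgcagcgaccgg
Pmp22: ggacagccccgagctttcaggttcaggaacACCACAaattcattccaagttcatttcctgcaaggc

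Genes of ribosome assembly, which make up the nucleolar machinery of growing cells, had the higher level in Runx1-read cells for 18 of 20 measured members (median log2 ratio 0.58, 0.76 in the first run and 0.31 in the later runs). Of these, Dkc1 (246.2 against 110 CPM), Nop58 (215.8 against 107.2) and Polr1a (59.3 against 28.7) were past the 2-fold rule, and the nucleolar proteins Npm1 (2242 against 1431) and Ncl (1141 against 805) were not. Of 20 genes of mitosis, 19 were lower (median −0.59), with the kinases Aurka and Bub1 past the rule. Of 20 genes of DNA replication, 15 were higher (median 0.30) with 0 past it. Of all 11087 genes measured, 5663 were higher and 5424 lower, and 3.89% and 4.72% of those compared were past the rule. The replication median was −0.14 in the later runs, and the mitosis median 0.61 and 0.65 in the conflicting-stage and RUNX1b sorts.

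**Figure D5:**
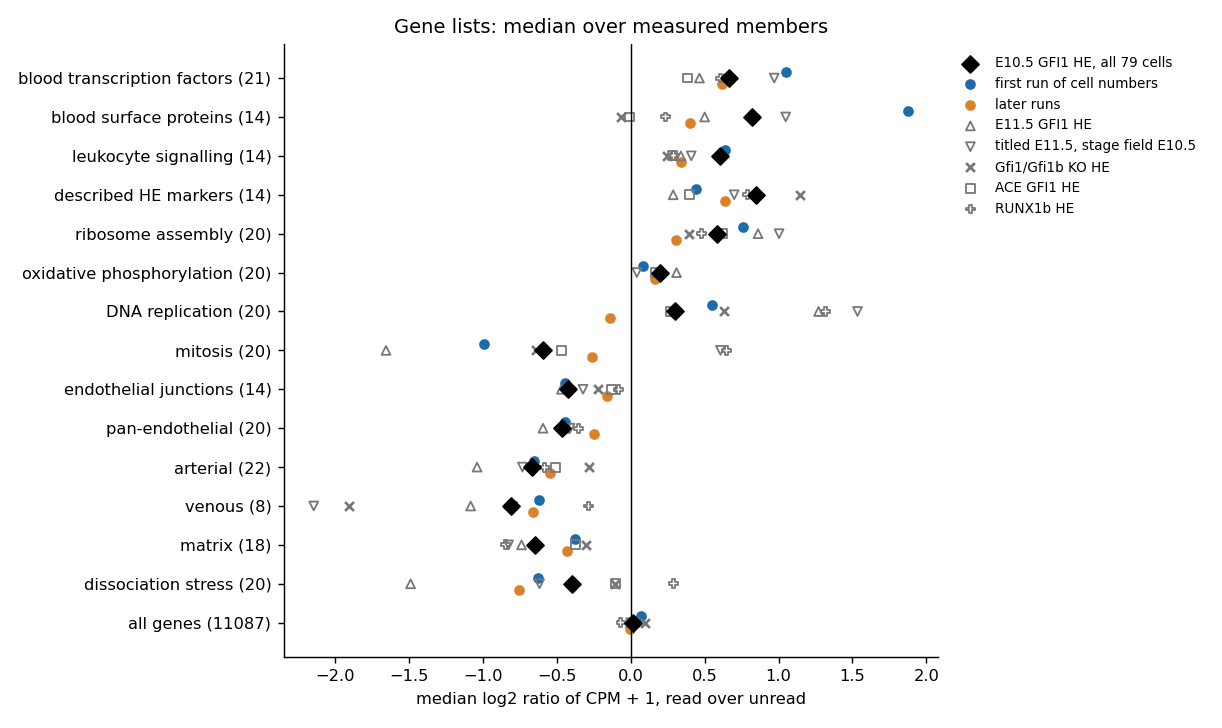
Median log2 ratio, Runx1-read over Runx1-unread, of the measured members of 14 gene lists and of all genes (number measured in brackets), over all 79 cells (diamonds), within the sets of cell numbers (filled circles) and in 5 other HE sorts (open symbols and crosses). Blood transcription factors and ribosome assembly lie above 0 and the pan-endothelial, arterial, venous and matrix lists below 0 in every one of them, while mitosis, DNA replication, blood surface proteins and dissociation stress cross 0.

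Markers of other cell types were compared as sums. Those of macrophages reached 46.6 against 27.8 CPM, with 6 of 12 at 0 on both sides, among them Adgre1, C1qa, C1qb and C1qc. Erythroid markers were at 91.4 against 80.3 CPM, and of the granulocyte list only Gfi1 reached 5 CPM. Megakaryocyte markers (970 against 1037 CPM) were mostly Vwf, which endothelium also makes. Smooth muscle markers were higher (541 against 205.9 CPM), led by Acta2 (319 against 93.5 CPM), but their sum in single Runx1-read cells ranged from 0 to 6730 CPM and the log2 ratio of Acta2 was −0.49 in the first run and 4.404 in the later runs. Mesenchyme markers, mostly Fstl1, stood at 1176 against 1523 CPM, above Endo (483) and EHT (422). Sympathetic markers stood at 374 against 544 CPM, also above Endo (126.9) and EHT (107.7); they were mostly Stmn2 and Gata3, while Th and Dbh were at 0 on both sides. Of 20 genes induced by tissue dissociation, 17 had the lower level in Runx1-read cells (median −0.40; Fos 116.3 against 261.3 CPM). The part of these in the differences above was not tested.

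The Endo, EHT and IAHC sorts, which the rule did not use, were set beside the genes that differed. Of the 314 genes that were higher in Runx1-read cells, 230 (73.2%) were higher in EHT than in Endo, against 52.1% of all genes compared, and 32.8% at least 2-fold, against 8.43%. Of the 381 that were lower, 71.1% were lower in EHT than in Endo, against 47.9% of all genes, and 42.3% at least 2-fold, against 11.4%. For IAHC against Endo the 2-fold shares were 35.03% (all genes 8.83%) and 50.4% (all genes 17.04%). Gfi1 was at 0 CPM in Endo and 136.5 in EHT, Spi1 at 0.025 and 244.7, Myb at 0.52 and 170.7, and Adgrg1 at 4.11 and 641, so that the Runx1-read cells were below EHT for all 4. Pglyrp2, at 23.1 CPM in Runx1-read cells, was at 0.72 in Endo and 12.5 in EHT. Kitl was at 81.4 CPM in Endo and 1.26 in EHT, and Pmp22 at 147.02 and 6.94, while Dkk2 was at 10.1 and 13.5.

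The same split could be made in 4 HE sorts that the rule did not use, among cells with at least 10 of the 20 pan-endothelial genes: 12 Runx1-read and 24 Runx1-unread cells in GFI1 HE of E11.5, 10 and 29 in the conflicting-stage sort, 15 and 22 in the ACE sort and in the RUNX1b sort 11 Runx1-read cells, 8.66% of the cells of the 2 kinds that passed that limit (60 and 26.5% without it). The KO sort had 28 and 6, too few on one side to enter. Of the 314 genes, 72 (22.9%) had the higher level in Runx1-read cells of all 4 sorts, against 12.2% of all genes compared, and of the 381, 30.4% had the lower level in all 4, against 10.7%.

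Paired by sort, edgeR's quasi-likelihood test over these 4 sorts called 0 of 12640 genes (0%) at an adjusted p under 0.05 in either direction. The smallest adjusted p was 0.321, and 1090 genes had an unadjusted p under 0.05, 405 higher and 685 lower. DESeq2 on the same sums called 1.6% of the genes higher and 3.43% lower, 636 in all. With 4 pairs the test has 3 residual degrees of freedom. On simulated sums of 11888 genes with the spread of these sums it recovered 38.4% of 4-fold and 60.9% of 16-fold changes. Gfi1 had a fitted log2 difference of 2.08 ± 0.53 (SE, adjusted p = 0.446 by edgeR) and was higher in 4 of 4 sorts, at log2 ratios of 0.80, 2.69, 1.35 and 3.48. Spi1 had 3.08 ± 0.85 (adjusted p = 0.464 by edgeR), higher in 4 of 4. Myb was at 2.42, 4.41, 2.16 and 3.32, Adgrg1 at 1.52, 2.17, 1.68 and 2.73, and Ikzf2 was higher in 4 of 4, by up to 1.47. Ptpn6 was higher in 3 and lower in the RUNX1b sort (−2.75).

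The 6 genes with the smallest p over the 4 sorts, named after their values were seen, were Dok2, an adaptor protein of blood cells (fitted log2 difference 2.03 ± 0.19, adjusted p = 0.321 by edgeR), the transcription factor Mycn (4.60 ± 0.55), Neurl3 (1.9005 ± 0.23), Adgrg1 (1.98 ± 0.24) and, lower, Sat1, the spermidine acetyltransferase (−1.53 ± 0.13), and the endothelial sialomucin Emcn (−1.18 ± 0.15). In the E10.5 cells Dok2 stood at 96.6 against 17.8 CPM, Mycn at 105.3 against 30.8 and Sat1 at 1376 against 3200, all past the 2-fold rule, while Emcn (518 against 663 CPM) was not. In all, 36 genes were higher and 38 lower at E10.5, at least 2-fold within both sets of cell numbers and with the same direction in the 4 sorts. Beside Gfi1, Spi1, Myb, Ikzf2, Nfe2 and Cebpb, the former hold the integrin Itgb3, the actin-severing protein Gsn, Dock2, Def6 and Cyth4. Mycn is not among them, since its log2 ratio was 0.75 in the first run and 6.02 in the later runs. The latter hold Notch4, Cav1, the main protein of caveolae, the transcription factor Nfia, the MAP kinase phosphatase Dusp6, Cd200, Tmem100, Htra1 and Dab2. Of all genes compared, 1.87% were at least 2-fold higher within both sets of cell numbers and 12.2% higher in all 4 sorts. The shares for lower genes were 1.68% and 10.7%. The share of all genes that met both conditions together was not taken, and no p-value belongs to these counts. The genes named from them are a description.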

How the data were processed

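Single-cell Smart-seq2 libraries were read as whole-number counts per gene and cell, from 2 tables the authors deposited. Per the submitters' processing notes, bcl2fastq, STAR (version 2.4.2a), HTSeq (0.6.1p1), R (3.6.2) and the build GRCm38 were used; the annotation release, strand setting and cell filter were not given in the sources used here. One table's copy ends within a row, so the 36131 genes held whole in both were used; in the ACE sort 10.2% of reads lay outside them, 9.38% in the ribosomal Rn18s-rs5. Columns of 779 cells were not used. Depths are given with the results.

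Cells were summed by Runx1 reads and scaled to CPM, with exact Poisson and Clopper-Pearson intervals (scipy 1.17.1). With 1 sort, the E10.5 comparison has no test. The labels name no embryos or cultures. Sums of 4 other sorts with at least 8 cells a side were tested with edgeR 4.0.16 (quasi-likelihood, TMM, filterByExpr, the sort as block, Benjamini-Hochberg), which pairs the 2 sums of a sort because they come from the same sort; DESeq2 1.42.0 was an alternative. Both steps were tested on simulated data: of 200 genes changed 4-fold among 7849, the 2-fold rule recovered 100%, and 23 unchanged genes passed it. The simulated cells had no difference between runs of cell numbers, and the changed genes were drawn from higher levels. These figures therefore do not tell how many genes the rule passes wrongly or misses in the real cells.

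Named were the 12 highest and 12 lowest ratios past the 2-fold rule (mitochondrial, ribosomal protein, predicted, pseudogene, Xist and Y-linked genes and Runx1 left out), Spi1, Gfi1, the gate genes, up to 4 members of each list by absolute ratio, and the largest changes past the threshold in the other sorts, of which there were none. One gene that this rule names is not reported here. Further list members and genes named from the other sorts were chosen after their values were seen. Runx1 was left out of all results. The cells and the 36 gene lists were chosen with earlier results of these data known, and the list members' counts are no independent evidence.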

Additional observations from a re-analysis of the deposited data

Results flagged for a closer look

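Over the 4 other HE sorts, 57 genes and lists were looked at for a sort that lies apart from the rest, by the gap of the farthest sort over the whole range. Of the 57, 3 passed, where chance alone would flag about 1 in 20. Kitl had a log2 ratio of 0.92 in the ACE sort, against −3.87 to −3.07 in the others. Mlh3 had −4.55 in the RUNX1b sort, against −0.85 to −0.21. Ptprc had 3.37 in GFI1 HE of E11.5, against −0.022 to 0 in the others, where it was hardly read.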

How the results depend on the processing

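The shares of higher (3.89%) and lower genes (4.72%) of those compared, 314 and 381 genes, kept their size within 1.5 times in 10 of 12 settings, at 3.31 to 4.96% higher and 4.08 to 5.47% lower. Of the 10, a limit of 1 Runx1 read and a split by thinned Runx1 reads chose the same cells, so they test nothing and 8 remain. A share of like size need not be the same genes: with the cells of conflicting stage labels added, 52.2% of the higher and 53.3% of the lower genes were shared. Without the globin filter (45 and 50 cells) they were 8.13% (634 genes) and 2.85%, with 79.9% of the higher and 23.4% of the lower genes shared, and without the filter on low values 17.8% and 14.7%. Of settings chosen after seeing the data, the first run of cell numbers gave 9.79% higher and 7.15% lower, the later runs 8.16% and 8.27%, cells with Xist reads 8.47% and 7.4%, and cells with Y-linked reads 8.98% and 9.95%; each holds fewer cells. TMM scaling moved log2 ratios by −0.034. Of the 30 named genes followed through these settings, Gfi1b (−2.27) and Cdh5 (0.10) took the other sign without the globin filter; neither was past the 2-fold rule. In that setting 10 list medians turned as well, among them those of pan-endothelial (−0.46 to 0.21), arterial (−0.67 to 0.010) and matrix genes (−0.65 to 0.035). CPM there counts the globin reads of the added cells, so the shares, signs and medians of that setting are not separated from this scaling. The first run of cell numbers held 0 of the 16 globin-rich cells.

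In the other sorts edgeR's 0% became 1.6% higher and 3.43% lower with DESeq2, 0.00775% (1 gene) each way with the E10.5 sort added, and 0.00964% lower (1 gene) with thinned cells. It stayed at 0 with no replicate block, no endothelial filter, no filter on low counts, a limit of 1 Runx1 read, the KO sort added (chosen after seeing the data) and without each sort in turn (0 to 0). The adjusted p by DESeq2 was 0.00152 for Gfi1, 0.00161 for Spi1 and 0.000254 for Myb. The cause was not tested. Depth limits the Runx1-unread side: by counting error alone, 0 reads over its cells allow 0.13 CPM.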
